A study of Mus musculus with 12 samples.

Results

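Cytochrome P450 enzymes of families 2 and 3 are the main set of liver enzymes that oxidise drugs, plant and fungal compounds, steroids and fatty acids. They were chosen here by symbol, as the genes whose names start with Cyp2 or Cyp3 followed by a subfamily letter, leaving out Cyp2e1, Cyp2f2 and the names marked as pseudogenes. The pattern matched 85 rows of the expression table, of which 26 pseudogene names and the 2 named genes were left out, so that 57 of 57010 genes remained. They fall into subfamilies 2a with 4 genes, 2b with 5, 2c with 15, 2d with 9, 2j with 8 and 3a with 9, and 7 single genes of other subfamilies.

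Liver RNA was sequenced from 12 wild-type male C57BL/6J mice, split evenly into controls and mice fed Aspergillus oryzae A02, a filamentous food fungus, enriched with selenium (6 per group). The treated mice received 0.5 mg selenium per kg by daily gavage in saline, the controls carry the label of no treatment, and both groups ate a normal diet and were 6 weeks old when assigned. No group given the fungus without selenium was analysed here, so the fungus and its selenium cannot be told apart, and whether controls were gavaged with saline is not stated. The design text gives 8 weeks of feeding and the sample descriptions speak of 14 weeks. The tissue label is liver and another label names hepatocytes. The 6 hepatocyte markers summed to 30062 to 50190 TPM in the controls and 32152 to 49817 TPM in the treated mice. Markers of Kupffer cells (at least 32.0 TPM in sum) and of red blood cells (at least 378 TPM) were present in every library, and the values are read as whole liver. Levels are in TPM, a share of all transcripts of a library, which are corrected for transcript length and can be compared between genes.

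These enzymes sit in the endoplasmic reticulum, hold a heme group and take electrons from P450 reductase (Por), with help from cytochrome b5. Their genes lie in clusters of close copies, and in mouse liver many of them respond to the nuclear receptors CAR (Nr1i3) and PXR (Nr1i2), to inflammation, which lowers them, to the daily clock, and to the sex-specific pattern of growth hormone.

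The 250 bases before the transcription start are shown for the 6 genes on which the description turns, taken from RefSeq on the GRCm38.p6 build, which is older than the GRCm39 build of the expression values. Cyp2j9 is shown because it was the one gene that passed the test. Its window is chr4:96591486-96591735 on the minus strand, with no capitals.
Cyp2j9: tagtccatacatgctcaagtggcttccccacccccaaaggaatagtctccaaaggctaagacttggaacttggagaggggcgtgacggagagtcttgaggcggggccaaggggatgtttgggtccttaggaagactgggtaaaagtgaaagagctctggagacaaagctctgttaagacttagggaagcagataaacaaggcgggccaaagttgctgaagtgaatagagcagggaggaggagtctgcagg
Cyp3a59 and Cyp3a25 are shown because their upstream sequences are 94.8% identical while their transcripts differ in level. The windows are chr5:146079008-146079257 on the plus strand and chr5:146009619-146009868 on the minus strand, and capitals mark the nuclear receptor half-site AGGTCA or its reverse complement.
Cyp3a59: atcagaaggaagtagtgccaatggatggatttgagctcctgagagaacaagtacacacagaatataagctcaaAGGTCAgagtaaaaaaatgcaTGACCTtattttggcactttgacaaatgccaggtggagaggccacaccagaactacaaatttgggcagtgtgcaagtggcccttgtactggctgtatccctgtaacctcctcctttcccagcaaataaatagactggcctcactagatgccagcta
Cyp3a25: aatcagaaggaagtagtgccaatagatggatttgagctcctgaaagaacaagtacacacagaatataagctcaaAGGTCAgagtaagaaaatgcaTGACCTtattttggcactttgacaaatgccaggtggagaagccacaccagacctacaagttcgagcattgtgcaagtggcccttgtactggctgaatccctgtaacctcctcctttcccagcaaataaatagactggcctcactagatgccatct
Cyp2a4, Cyp2a5 and Cyp2b10 are shown because each holds a match to the D-box, which is in capitals. The D-box is the 8-base site of the clock output factor Dbp and its relatives. The marked letters also fit TTGCNNAA, a looser pattern of C/EBP factors such as Cebpb. Which factor binds was not tested. The windows are chr7:26306942-26307191, chr7:26835089-26835338 and chr7:25897408-25897657, all on the plus strand.
Cyp2a4: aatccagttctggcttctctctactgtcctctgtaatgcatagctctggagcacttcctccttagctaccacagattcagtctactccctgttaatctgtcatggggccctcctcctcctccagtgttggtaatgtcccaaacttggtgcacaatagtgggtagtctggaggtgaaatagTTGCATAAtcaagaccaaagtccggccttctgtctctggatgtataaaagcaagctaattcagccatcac
Cyp2a5: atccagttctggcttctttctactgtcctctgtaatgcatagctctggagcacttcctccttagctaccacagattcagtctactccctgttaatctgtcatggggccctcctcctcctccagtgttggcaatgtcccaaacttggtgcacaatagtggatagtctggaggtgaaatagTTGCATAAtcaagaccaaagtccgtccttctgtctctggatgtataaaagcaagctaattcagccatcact
Cyp2b10: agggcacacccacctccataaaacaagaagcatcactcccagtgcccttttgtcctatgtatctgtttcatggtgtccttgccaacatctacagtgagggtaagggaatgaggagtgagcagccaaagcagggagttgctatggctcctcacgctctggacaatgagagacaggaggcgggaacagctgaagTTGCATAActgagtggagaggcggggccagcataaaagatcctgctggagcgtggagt

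Of the 57 genes, 48 had an upstream window, 51 windows in all, among 32851 in the table. The D-box was searched in 4 spellings on both strands (TTATGCAA, TTATGTAA, TTACGTAA and TTACGCAA), and 5 of the 51 windows held one (9.8%), against 1.75% of all windows. They belong to Cyp2a4, Cyp2a5, Cyp2b10, Cyp2b19 and Cyp2b23. In Cyp2a4 the match starts 70 bases before the start site, in Cyp2a5 71 and in Cyp2b10 58. AGGTCA was in 29.4% of these windows against 14.0% of all, CAAAGTCC, a sequence bound by HNF4-type receptors, in 25.5% against 1.2%, and TATAAA in 43.1% against 12.4%. In all 10 patterns were searched, with these 4 kept after the matches were seen. The other 6 were TTANGNAA, which takes in the D-box (25.5% against 10.3%), TTGCNNAA, which overlaps it (27.5% against 9.56%), AGTTCA (15.7% against 11.8%), GGGCGG (11.8% against 32.7%), CACGTG (1.96% against 6.02%) and an HNF1-type pattern, found in 0 of the 51 windows and 0.371% of all. Close copies share their upstream sequence, so the windows are not independent of each other, and a match is a run of letters, not a shown binding site. Cyp2a4 and Cyp2a5 were 97.6% identical over these bases, Cyp2b9 and Cyp2b13 99.2%, and Cyp3a41a and Cyp3a41b 99.6%, while Cyp2b10 and Cyp2b9 were 70.0% identical.

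Close copies also limit how well reads can be given to one gene. Among 50-base stretches of the annotated transcripts (GENCODE M21, in which 56 of the 57 genes were found), 0% of those of Cyp2j9 occurred in another gene, against 30.0% of Cyp3a59, 38.0% of Cyp2a4, 37.0% of Cyp2a5, 60.3% of Cyp2c40 and 98.6% of Cyp3a41a. Of the tested genes, 13 shared more than 20% of these stretches with another gene and 10 less than 5%. Levels of the former are therefore uncertain as single-gene values.

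Together the 57 genes made up 0.741% of all TPM, from 0.543% in control 5 to 0.915% in control 6. Their summed level was 7570 ± 1405 TPM in controls and 7253 ± 708 in treated mice (mean ± SD, n = 6 each). Cyp3a11, the main drug and steroid oxidising P450 of mouse liver, alone held 30.0% of it at a mean of 2222 TPM over the 12 libraries. It was followed by Cyp2d9, a steroid hydroxylase high in males, at 788 TPM, Cyp2d10 at 658, Cyp2c29 at 595, Cyp3a25 at 485, Cyp2d26 at 446 and Cyp2a12 at 386. The first 10 genes in this order held 86.7% of the sum. By subfamily, 3a contributed 36.8%, 2d 27.6%, 2c 25.2%, 2a 7.51%, 2j 2.74%, the single genes 0.179% and 2b 0.0419%.

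**Figure D1:**
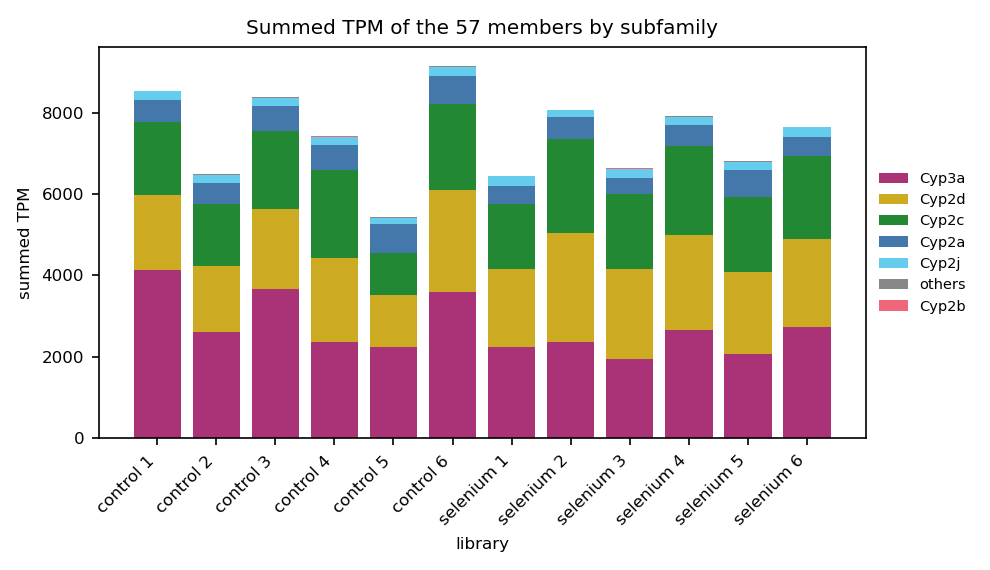
Summed TPM of the 57 genes in each of the 12 libraries, stacked by subfamily. Control 5 has the lowest total and control 6 the highest, and the Cyp3a block is largest in control 1, at 4136 TPM.

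Of the 57 genes, 33 reached 1 TPM in at least 6 of the 12 libraries and were tested, 29 of them reaching it in all 12. The other 4 came through with fewer libraries, namely Cyp2j9 (8), Cyp2d12 (7), Cyp2b10 (6) and Cyp2a4 (6). For these the filter itself favoured the group where the gene was higher: all 6 controls but only 2 treated mice had Cyp2j9 at 1 TPM or more. A further 24 genes were below the filter, of which 20 never reached 1 TPM and 5 were listed at 0 in every library (Cyp2b23, Cyp2j7, Cyp2j12, Cyp2w1 and Cyp3a41b).

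Genes were compared between treated and control mice on log2(TPM + 1) with limma, over all 9980 genes that passed the filter, with Benjamini-Hochberg adjustment. A negative log2 change means lower in treated mice. One of the 33 tested genes passed an adjusted p of 0.05, Cyp2j9, which was lower in treated mice, and 0 were higher. Over all tested genes, 0.311% passed as lower and 0.02% as higher. At an unadjusted p under 0.05, 7 of the 33 were lower and 2 higher, while 11.4% of all tested genes were lower and 7.01% higher at that level. Median-of-ratios scaling turned this split into 5 lower and 4 higher, quantile normalization into 5 lower and 3 higher, and TPM rescaled without mitochondrial-encoded genes into 9 lower and 1 higher. The 7 lower genes include Cyp2j9, Cyp2d12 and Cyp2b10, which passed the filter mainly through controls, where they were higher. In all, 18 of the 33 changes were negative and 15 positive, with a median of -0.03, and the median over all tested genes was also -0.03, with 54.6% negative. Among the 24 tested genes above an unadjusted p of 0.05, the 95% interval of the change lay within 1 log2 unit of 0 for 20.

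**Figure D2:**
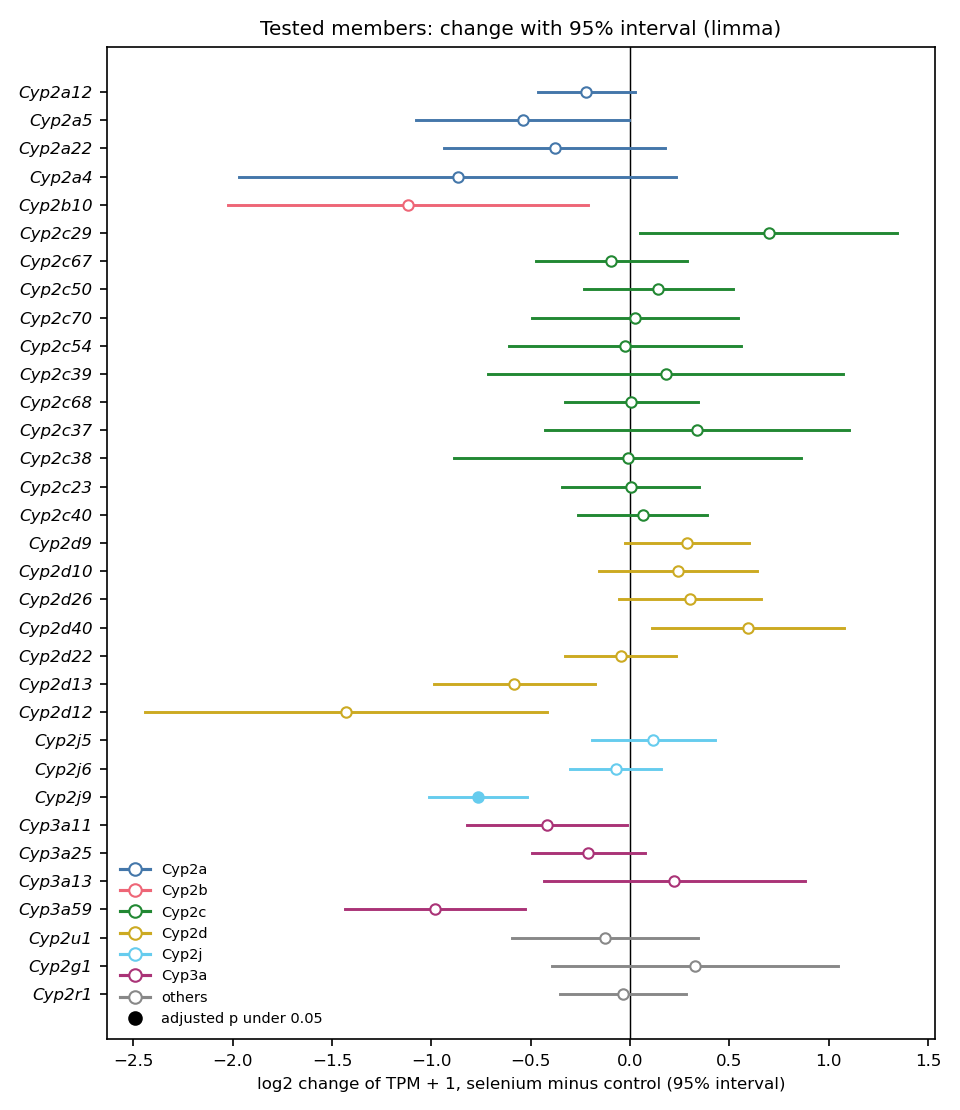
Log2 change of TPM + 1, selenium minus control, with its 95% interval from limma, for the 33 tested genes in order of subfamily; the filled point passed an adjusted p of 0.05. Cyp2j9 is the only filled point, and 18 points lie left of 0.

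The libraries differed in further measures, some of them along with the groups. The share of TPM from mitochondrial-encoded genes was 13.3 to 22.8% in controls and 8.10 to 13.8% in treated mice, and only control 1 was below the highest treated mouse. TPM rescaled without these genes moved the median change of all genes from -0.03 to -0.11. The clock gene Dbp was above 10 TPM in controls 5 and 6 and treated mice 1 and 5 (15.7 to 53.6 TPM) and at most 1.44 TPM in the other 8. The acute phase gene Saa1 was highest in treated mouse 3 (8641 TPM) and control 5 (4541 TPM). Control 4 had the highest value of 9 of the 33 tested genes and the lowest of 4, and control 5 the lowest of 9. Over all tested genes limma called 31 lower and 2 higher, median-of-ratios scaling 24 and 6, and quantile normalization 10 and 2. TPM rescaled without mitochondrial-encoded genes gave 184 lower and 6 higher, and array weights 141 and 114, while the authors' deposited table called 289 of the same genes lower and 696 higher. The part of these differences in the results was not tested, apart from the fits named beside them. In whole liver, fewer cells of a type and less RNA per cell cannot be told apart.

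Cyp2j9 belongs to the subfamily that oxidises arachidonic acid and other fatty acids to epoxides and hydroxy acids. Its TPM was 2.14, 2.56, 1.91, 2.01, 2.11 and 2.40 in controls 1 to 6 and 0.43, 1.07, 0.74, 0.98, 0.89 and 1.21 in treated mice 1 to 6. Every treated mouse was below every control, with a gap between 1.21 and 1.91 TPM. The means were 2.19 ± 0.245 and 0.887 ± 0.275 TPM (SD, n = 6 each). The change was -0.77 on the log2(TPM + 1) scale (SE 0.12, 95% interval -1.01 to -0.52, limma adjusted p = 0.0127). A pseudocount of 1 is large beside these levels, and with 0.1 the change was -1.26. Groups that do not overlap, lower in treated mice, were found for 1.47% of all tested genes. In the exact permutation test Cyp2j9 had an adjusted p of 0.133, the smallest value of any gene. There 0 of all 9980 tested genes passed, so that test cannot decide whether the call holds. The call was lost with no filter (adjusted p = 0.0757). It was also lost without control 2 (adjusted p = 0.0534), in the 8 libraries with low Dbp (adjusted p = 0.0621, change -0.66), without controls 4 and 5 (0.0708) and without control 5 and treated mouse 3 (0.0599). In the 4 libraries with high Dbp, 2 of each group, the change was -0.98. Of the 3 tested genes of its subfamily it was the least abundant.

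The 2 abundant genes of the subfamily did not pass the test. Cyp2j5, the main 2j enzyme of liver and kidney, ran from 126 over a median of 183 to 200 TPM in controls and from 137 over 189 to 221 TPM in treated mice. Its change was 0.12 (95% interval -0.19 to 0.43, limma adjusted p = 0.706). Cyp2j6 was at 19.4 ± 2.61 TPM in controls and 18.3 ± 1.57 in treated mice, with a change of -0.07 (-0.30 to 0.16). The groups overlapped for both. The summed 2j level was 196 ± 26.1 TPM against 209 ± 31.8, so that Cyp2j9 carried little of it. The other 5 genes, Cyp2j7, Cyp2j8, Cyp2j11, Cyp2j12 and Cyp2j13, stayed at or below 0.13 TPM.

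**Figure D3:**
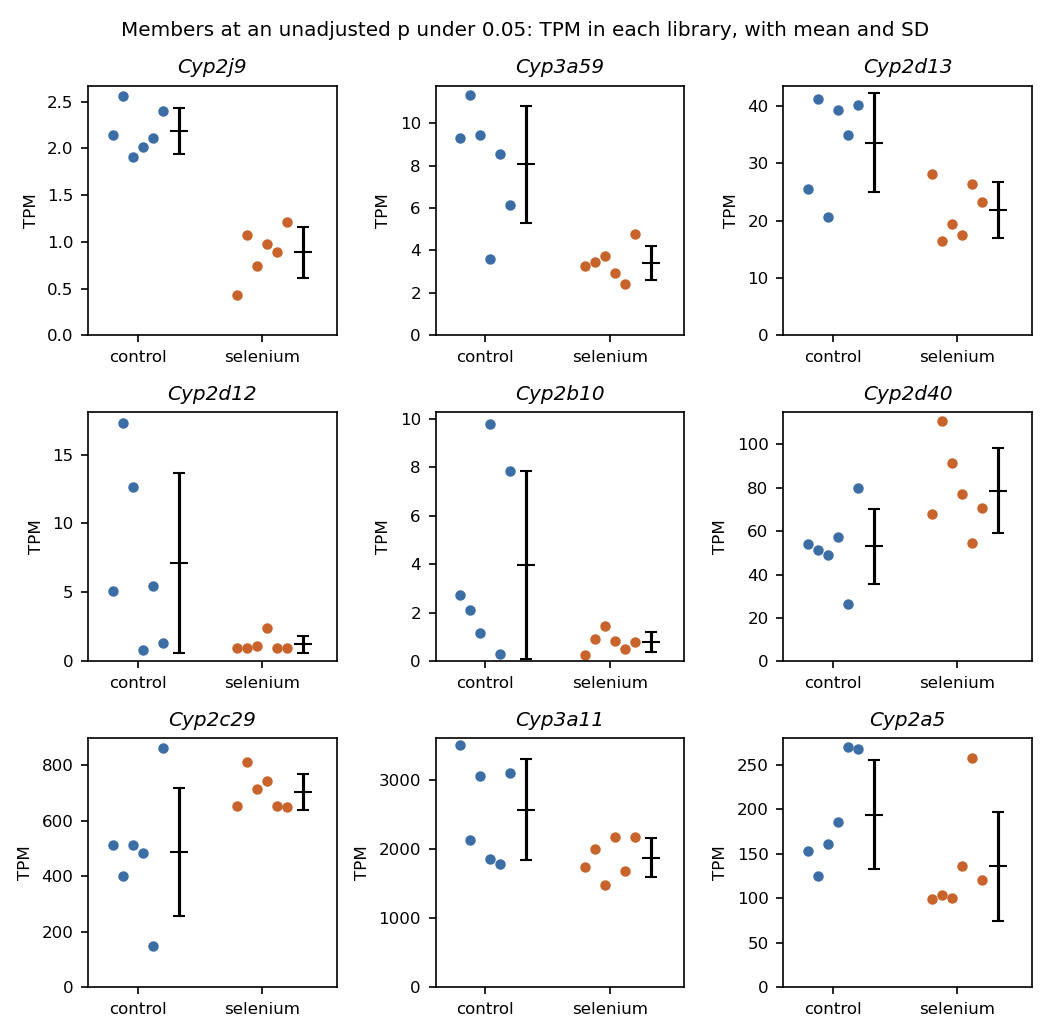
TPM of the 9 genes at an unadjusted p under 0.05 in each control and treated library, with mean and SD beside the points. The groups are separate for Cyp2j9 alone; the other 8 panels overlap.

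The 3a enzymes oxidise steroids, bile acids and a wide range of drugs, and are induced through PXR. Cyp3a11 ran from 1787 over a median of 2593 to 3502 TPM in controls and from 1486 over 1867 to 2176 TPM in treated mice. Controls 1, 3 and 6 were above every treated mouse, and the other 3 controls were within their range. Its change was -0.42 (SE 0.19, 95% interval -0.82 to -0.02), which did not pass adjustment (limma adjusted p = 0.253). Cyp3a25 was at 520 ± 66.3 TPM in controls and 451 ± 72.3 in treated mice, with a change of -0.21 (-0.50 to 0.08).

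Cyp3a59, a close copy of Cyp3a25 at far lower level, ran from 3.61 over a median of 8.92 to 11.3 TPM in controls and from 2.40 over 3.38 to 4.76 TPM in treated mice. Only control 4, at 3.61 TPM, fell within the treated range. The change was -0.98 (SE 0.21, 95% interval -1.44 to -0.53), with an adjusted p of 0.0615 by limma. It passed without control 4 (adjusted p = 0.0285), without control 6 (0.0429), with array weights (0.0274) and with robust empirical Bayes (0.0486). It also passed with TPM rescaled without mitochondrial-encoded genes (0.0353). These were the only 5 of 28 alternatives past 0.05. The adjusted p was 0.162 with no filter and 0.169 by the exact permutation test. In the low-Dbp libraries the change was -0.92 (adjusted p = 0.116), and in the high-Dbp ones -1.11. Reads of Cyp3a59 and Cyp3a25 can be exchanged in the 26.8% of 50-base stretches of Cyp3a59 found in Cyp3a25.

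Cyp3a13 was at 9.77 ± 4.68 TPM in controls and 11.6 ± 4.65 in treated mice, with a change of 0.22 (-0.43 to 0.88). Its highest value, 18.6 TPM, was in control 4, and its lowest 2 were in control 5 (4.70) and treated mouse 5 (4.53). Cyp3a41a, Cyp3a44 and Cyp3a16 are known from female or young mouse liver. Cyp3a41a stayed below the filter at 0.43 to 0.82 TPM in controls and 0.21 to 0.42 in treated mice, without overlap, and was not tested; the authors' deposited table gave it an adjusted p of 0.0541. Nearly all of its sequence is shared with Cyp3a41b, which was listed at 0. Cyp3a44 ran from 0.50 to 1.24 TPM and from 0.21 to 1.62 TPM, and Cyp3a16 reached 0.02 TPM in control 6 and was listed at 0 elsewhere. The summed 3a level was 3108 ± 790 TPM in controls and 2342 ± 317 in treated mice, a log2 ratio of means of -0.41, and most of it is Cyp3a11.

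The 2b enzymes, with Cyp2b10 as the standard target of CAR, were low in these livers. Cyp2b10 ran from 0.31 over a median of 2.42 to 9.79 TPM in controls and from 0.26 over 0.83 to 1.44 TPM in treated mice. Controls 4 (9.79) and 6 (7.83) stood above the rest, control 5 (0.31) was among the lowest of all, and the groups overlapped. The change was -1.12 (SE 0.42, 95% interval -2.02 to -0.21, limma adjusted p = 0.189). Cyp2b9, a female-biased gene, was at 4.43 TPM in control 4 and at most 0.74 TPM in the other 11 libraries. Cyp2b13 stayed at or below 0.29 TPM, Cyp2b19 at or below 0.05, and Cyp2b23 was listed at 0. The summed 2b level was 5.10 ± 5.33 TPM in controls and 1.11 ± 0.49 in treated mice, a log2 ratio of means of -2.21. It was 14.5 TPM in control 4, 8.12 in control 6, 0.48 to 3.70 in the other controls and 0.30 to 1.61 in treated mice. The log2 ratio was between -2.45 and -1.54 when each library was left out in turn, which always keeps control 4 or control 6. This sum was not tested.

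The 4 genes of subfamily 2a, which hydroxylate steroids and coumarin, all had negative changes, 1 of them at an unadjusted p under 0.05 and 0 past adjustment. Cyp2a12, the most abundant, was at 414 ± 28.4 TPM in controls and 358 ± 49.98 in treated mice, with a change of -0.22 (-0.47 to 0.03). Cyp2a5, the coumarin hydroxylase, ran from 125 over a median of 173 to 270 TPM in controls and from 98.8 over 112 to 258 TPM in treated mice. Its 3 highest values were in control 5 (270), control 6 (268) and treated mouse 5 (258), which are 3 of the 4 libraries with high Dbp, while the fourth, treated mouse 1, had its lowest (98.8). The change was -0.54 (SE 0.25, 95% interval -1.08 to -0.01, limma adjusted p = 0.267), and -0.44 among the low-Dbp libraries. Cyp2a22 was at 4.08 ± 1.65 and 2.95 ± 1.72 TPM, with a change of -0.38 (-0.94 to 0.18). Although without a D-box match, it was highest in treated mouse 5 (6.38) and control 6 (6.12), with 2.76 in control 5 and 2.48 in treated mouse 1. The D-box genes Cyp2a4 and Cyp2b10 were highest in control 4, where Dbp was at 1.12 TPM. In the high-Dbp libraries Cyp2b10 was at 0.31 (control 5), 7.83 (control 6), 0.26 (treated mouse 1) and 0.50 TPM (treated mouse 5). A link to Dbp was not tested.

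Cyp2a4, a testosterone hydroxylase close in sequence to Cyp2a5 and higher in females, was at 21.7 TPM in control 4 and between 0.24 and 1.67 TPM in the other 11 libraries. Its change of -0.87 (-1.97 to 0.23) was -0.30 without control 4. Cyp2a5 in control 4 was at 185 TPM. The summed 2a level was 616 ± 78.2 TPM in controls and 497 ± 92.2 in treated mice.

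**Figure D4:**
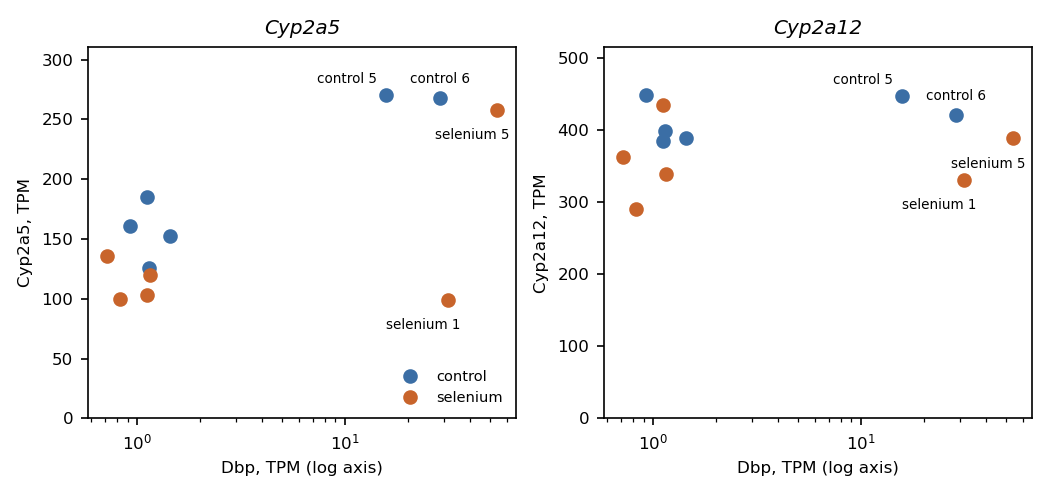
TPM of Cyp2a5 (left) and Cyp2a12 (right) in each library against TPM of Dbp on a log axis; the 4 libraries with Dbp above 10 TPM are labelled. Controls 5 and 6 and treated mouse 5 have Cyp2a5 between 258 and 270 TPM, and treated mouse 1 has 98.8; Cyp2a12 shows no such group.

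The 2d enzymes are relatives of the human debrisoquine hydroxylase. The 3 abundant ones had positive changes with overlapping groups. Cyp2d9 was at 716 ± 159 TPM in controls and 860 ± 76.3 in treated mice (change 0.29, 95% interval -0.02 to 0.60), Cyp2d10 at 610 ± 160 and 705 ± 113 (0.24, -0.15 to 0.64), and Cyp2d26 at 402 ± 97.1 and 489 ± 77.4 (0.30, -0.05 to 0.66). Control 5 had the lowest value of all 3. Cyp2d40 ran from 26.4 over a median of 52.7 to 79.8 TPM in controls and from 54.7 over 73.8 to 111 TPM in treated mice. Its lowest value was again in control 5, and controls 4 and 6 were within the treated range. The change was 0.59 (SE 0.23, 95% interval 0.11 to 1.08, limma adjusted p = 0.190).

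Cyp2d13 and Cyp2d12 had negative changes that did not pass adjustment. Cyp2d13 ran from 20.6 over a median of 37.1 to 41.2 TPM in controls and from 16.4 over 21.4 to 28.1 TPM in treated mice, with a change of -0.58 (SE 0.19, 95% interval -0.99 to -0.18, limma adjusted p = 0.142). Controls 1 and 3 were within the treated range, and the other 4 were above it. Cyp2d12 was at 5.12, 17.2, 12.6, 0.85, 5.48 and 1.30 TPM in controls 1 to 6, and at 0.95 to 1.14 TPM in treated mice apart from mouse 4 (2.45). The controls spanned a wide range, with control 4 the lowest of all 12 libraries. The change was -1.43 (SE 0.47, 95% interval -2.44 to -0.42, limma adjusted p = 0.148). Cyp2d22 had a change of -0.05 (-0.33 to 0.23). Cyp2d11 and Cyp2d34 stayed at or below 0.23 TPM. The summed 2d level was 1876 ± 415 TPM in controls and 2208 ± 265 in treated mice.

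The 2c enzymes act on retinoids, arachidonic acid, bile acids and drugs, and 11 of the 15 genes were tested. Of these, 8 changes were positive and 3 negative, 1 at an unadjusted p under 0.05. That gene was Cyp2c29, a target of CAR and PXR, which ran from 148 over a median of 499 to 861 TPM in controls and from 647 over 684 to 810 TPM in treated mice. Control 5 had by far its lowest value and control 6 its highest, and the other 4 controls were at 401 to 513 TPM, below every treated mouse. The change was 0.70 (SE 0.30, 95% interval 0.05 to 1.35, limma adjusted p = 0.241), 0.39 without control 5 (adjusted p = 0.332) and 0.61 among the low-Dbp libraries.

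Other abundant 2c genes had changes near 0. Cyp2c67 was at 327 ± 54.4 TPM in controls and 313 ± 82.1 in treated mice, Cyp2c50 at 254 ± 63.1 and 273 ± 31.9, and Cyp2c70, which makes muricholic acids, at 258 ± 79.9 and 263 ± 104. Their changes were -0.09 (-0.47 to 0.29), 0.14 (-0.23 to 0.52) and 0.02 (-0.49 to 0.54), and all changed sign under at least one other setting. Cyp2c23, an arachidonic acid epoxygenase, had a change of 0.00 (-0.34 to 0.35).

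In 6 of the 11 tested 2c genes control 4 had the highest value of the controls. Cyp2c54 was at 399 TPM there and 114 to 209 TPM in the other controls, Cyp2c39, a retinoic acid hydroxylase, at 199 against 44.9 to 73.7, Cyp2c37 at 118 against 22.4 to 52.7, and Cyp2c38 at 78.4 against 14.1 to 22.8. Cyp2c68 was at 85.4 TPM there against 48.3 to 57.7, and Cyp2c40 at 8.90 against 4.13 to 7.19. Treated mice 3, 4 and 6 also had more Cyp2c39 (139, 127 and 132 TPM) than the remaining treated mice (40.1 to 45.1). Cyp2c37 and Cyp2c38 had the same 3 treated mice as their highest. The changes were -0.03 (-0.61 to 0.56) for Cyp2c54, 0.18 (-0.72 to 1.07) for Cyp2c39, 0.34 (-0.43 to 1.10) for Cyp2c37 and -0.01 (-0.88 to 0.86) for Cyp2c38. Control 4 also had the highest Por, at 89.3 TPM against 23.1 to 78.9 TPM in the other 11 libraries, and the highest of the fatty acid hydroxylases Cyp4a10, at 249 TPM, and Cyp4a14, at 61.1. The 4 untested 2c genes were Cyp2c55, with 0.15 to 1.05 TPM, and Cyp2c65, Cyp2c66 and Cyp2c69, at or below 0.16. The summed 2c level was 1755 ± 425 TPM in controls and 1982 ± 258 in treated mice.

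**Figure D5:**
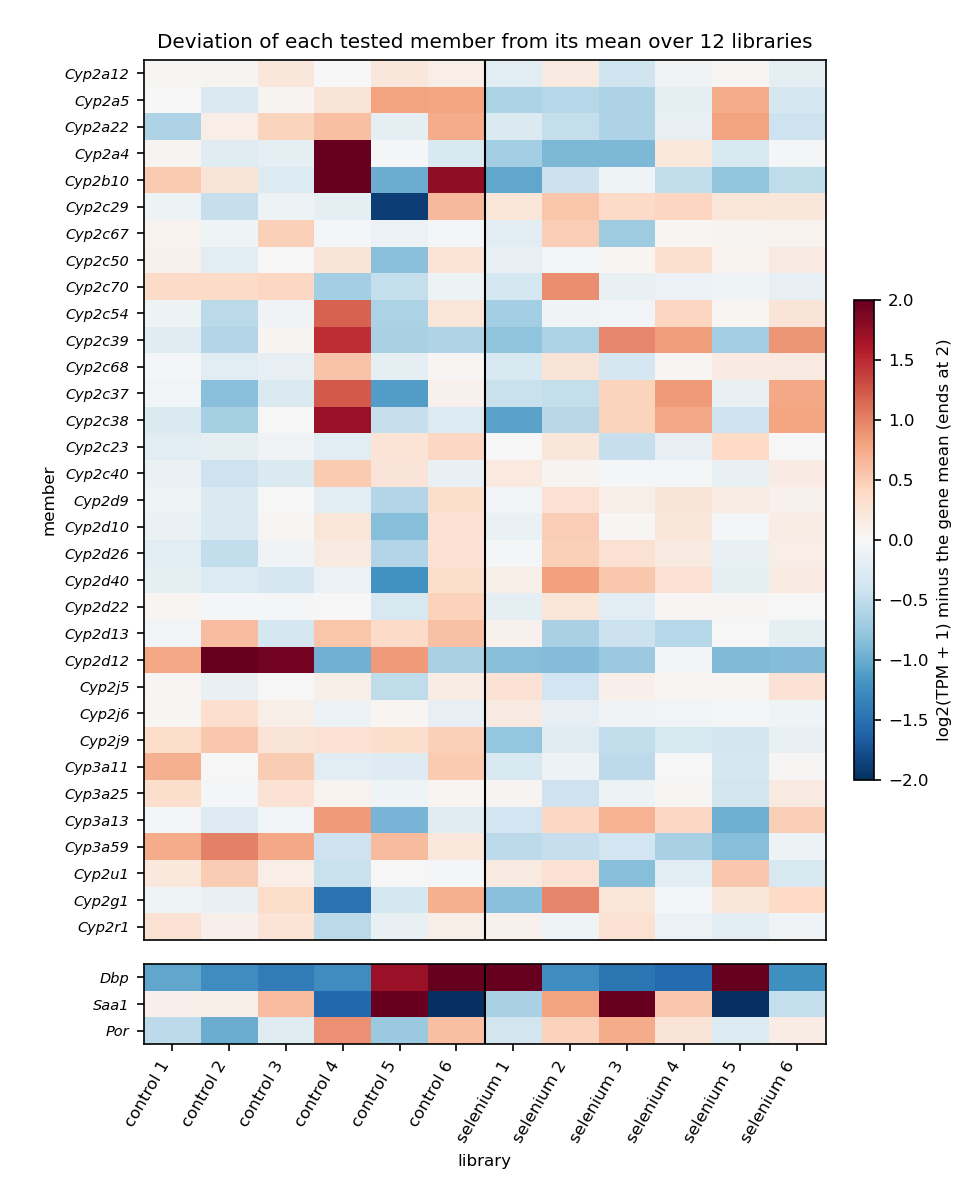
Deviation of log2(TPM + 1) from the mean of each gene over the 12 libraries, for the 33 tested P450 genes and below them Dbp, Saa1 and Por, which were chosen for display after their values were seen; the colour scale ends at 2 in either direction. Control 4 has the highest value in the Cyp2a4, Cyp2b10, Cyp2c37, Cyp2c38, Cyp2c39 and Cyp2c54 rows, in some with other libraries near it. Control 5 is low for Cyp2c29 and the abundant 2d genes.

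Of the 7 single genes, 3 were tested. Cyp2r1, the vitamin D 25-hydroxylase, was at 3.03 ± 0.802 TPM in controls and 2.89 ± 0.522 in treated mice (change -0.03, -0.35 to 0.28). Cyp2u1, a fatty acid hydroxylase, was at 5.27 ± 1.35 and 4.92 ± 1.92 TPM (-0.12, -0.59 to 0.34), and Cyp2g1 at 4.46 ± 2.43 and 5.62 ± 2.54 TPM (0.33, -0.39 to 1.05). Cyp2s1 reached 1.07 TPM in control 6 and stayed at or below 0.40 TPM elsewhere, while Cyp2ab1 and Cyp2t4 stayed at or below 0.05.

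The authors' deposited table, whose own method is not stated in the sources used here, had 5 of the 33 tested genes at an adjusted p under 0.05, against 2.9% of all tested genes lower and 6.97% higher. The 4 lower ones in the authors' deposited table were Cyp2j9 (log2 change -1.25), Cyp3a59 (-1.19), Cyp2d12 (-2.72) and Cyp2b10 (-2.27), and the 1 higher was Cyp2d40 (0.64). These 5 are also among the 9 at an unadjusted p under 0.05 in limma, on the same samples. Of the 5, Cyp2j9, Cyp2d12 and Cyp2b10 passed the filter mainly through controls.

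Genes around these enzymes were counted from lists chosen with earlier results known, and 0 of their genes passed an adjusted p of 0.05 in limma. Their counts at an unadjusted p under 0.05 stand against 11.4% of all tested genes lower and 7.01% higher. Among 8 redox partners of P450 enzymes in general, 2 were lower at an unadjusted p under 0.05 and 0 higher, with a list median of -0.16. They were the ferredoxin reductase Fdxr (4.61 ± 0.441 against 3.56 ± 0.479 TPM, change -0.30, adjusted p = 0.154) and cytochrome b5, Cyb5a (1552 ± 286 against 1217 ± 188 TPM, -0.35, adjusted p = 0.239). Of these, only cytochrome b5 is among the partners named above for the enzymes described here, and Fdxr is not. Por was at 47.1 ± 26.8 and 54.4 ± 16.2 TPM. Among 12 genes of heme synthesis and breakdown, 0 were below an unadjusted p of 0.05, with Fech (0.27) and Urod (0.28) nearest to it. Alas1, the first enzyme of heme synthesis, ran from 28.3 TPM in control 5 to 334 TPM in treated mouse 2, with a second low value of 43.1 TPM in treated mouse 5.

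Of 20 regulators of these genes, 19 were tested, and 2 were lower and 4 higher at an unadjusted p under 0.05. Cebpb, a transcription factor of the acute phase and of gluconeogenesis, ran from 15.8 to 30.0 TPM in controls and from 3.99 to 14.6 TPM in treated mice, without overlap. Its change was -1.04, with a limma adjusted p of 0.0671. CAR itself, Nr1i3, was at 70.8 ± 10.9 TPM in controls and 53.9 ± 8.41 in treated mice, a change of -0.39 (adjusted p = 0.154). PXR, Nr1i2, was at 19.8 ± 5.81 and 18.3 ± 3.41 TPM, a change of -0.08. The partner receptor Rxra had a change of 0.55 (adjusted p = 0.169) and Ppara one of 0.96 (adjusted p = 0.170), and the group ranges overlapped for both.

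Of 24 conjugating enzymes and transporters that share regulators with the P450 genes, 23 were tested, and 7 were lower and 0 higher at an unadjusted p under 0.05, with a list median of -0.13. Sult1a1, a phenol sulfotransferase, was at 243 ± 38.9 TPM in controls and 167 ± 32.7 in treated mice without overlap (change -0.56, limma adjusted p = 0.111). The uptake transporter Slco1a4 was at 19.2 ± 7.69 and 9.91 ± 2.46 TPM (-0.83, adjusted p = 0.116). Of 20 other P450 genes, 16 were tested and 1 was higher at that level, Cyp2f2 (288 ± 93.4 against 385 ± 69.0 TPM), the periportal P450. Cyp2e1, the ethanol-oxidising P450, was at 5105 ± 1868 and 5787 ± 618 TPM.

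Clock output, zone, sex and inflammation lists gave counts of the same order. Their list medians were 0.22 for clock output, 0.04 for pericentral, -0.30 for periportal and 0.06 for inflammation genes. The median was 0.28 for sex-biased genes and -0.15 for their regulators. For the earlier lists it was 0.08 for heme genes, -0.00122 for regulators of the P450 genes and 0.22 for other P450 genes. Of 7 tested clock output genes, 1 was higher at an unadjusted p under 0.05, Nr1d1 (9.26 ± 11.9 against 17.3 ± 9.38 TPM), and Bhlhe40 was at 5.99 ± 2.93 and 8.00 ± 3.31. All 7 changes were positive. In the low-Dbp libraries Nr1d1 ran from 1.04 to 2.92 TPM in controls and from 8.60 to 18.1 TPM in treated mice. Its change there was 2.24 (limma adjusted p = 0.0168), so the low-Dbp libraries were not matched between groups in this clock gene. Of 11 tested pericentral genes, 1 was lower, Lect2 (238 ± 91.5 against 148 ± 22.8 TPM), and 1 higher, Cldn2 (10.97 ± 3.88 against 18.7 ± 6.00). Of 13 periportal genes, 2 were lower, Gls2 and Arg1, and 1 higher, Cyp2f2. Of 13 tested sex-biased genes outside the P450 set, 1 was higher, Serpina1e. It was at 8.20 ± 3.06 against 16.3 ± 4.30 TPM, without overlap (limma adjusted p = 0.0961). Groups that do not overlap, higher in treated mice, were found for 0.16% of all tested genes. The list was not split by the direction of sex bias. Prlr had a change of 0.33. Of 8 tested regulators of sex-biased genes, 0 were at that level, with Trim24 (-0.38) and Stat5a (-0.20) nearest to it. Of 13 tested acute phase and inflammation genes, 0 were at that level, with Socs3 (0.41) and Fgb (0.27) nearest, and their summed level ran from 3423 to 28654 TPM in controls and from 2958 to 31895 TPM in treated mice.

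Markers of other cells were counted in the same way. All 6 Kupffer cell markers had positive changes, with a list median of 0.56 and 0 past adjustment, and their summed level ran from 32.0 to 88.3 TPM in controls and from 37.8 to 154 TPM in treated mice. The 4 tested stellate cell markers and the 2 tested cholangiocyte markers were all negative, with medians of -0.30 and -0.52, 1 of the 6 at an unadjusted p under 0.05 (Dcn). Of the 5 red blood cell markers 4 were negative, and of the 3 tested endothelial markers 1. The T and B cell list had 1 tested gene, Ptprc (-0.36), and the pancreas list 1, Cela1 (0.36), neither at an unadjusted p under 0.05. With 1 tested gene each, these 2 lists give no reading of their cell types. The hepatocyte markers had a median of 0.04. The part of these differences in the P450 results was not tested.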

How the data were processed

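Expression in 12 liver libraries, 6 per group by the sample titles, was taken from the deposited series table, whose TPM values, made by the authors, equalled those of the single-library tables within 0.005 TPM in 100% of cases. The submitters' processing notes name the GRCm39 build and the tools DESeq2, RSEM 1.2.8 and HISAT2 2.1.0, without saying which tool made which value. TPM carries no depth, so counting error is unknown, and no count test was run. The authors also deposited a log2 fold change (control over treated, turned here to treated over control) and a p-value and adjusted p-value per gene.

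Genes at 1 TPM or more in at least 6 libraries (9980) were tested on log2(TPM + 1) with limma 3.58.1 in R 4.3.3, with an intensity trend and empirical Bayes, no covariates, two-sided, Benjamini-Hochberg adjusted over all of them, threshold 0.05. The script was tested on simulated data. Log2 changes understate those of low genes, and intervals are 95% intervals. Libraries are separate mice by their labels. The P450 genes and all gene and marker lists were chosen with earlier results of these data known. Named P450 genes were those at an unadjusted p under 0.05, the 3 most abundant of each subfamily and a fixed set; of each list, the 2 genes with the smallest p. The other P450 genes and Por, Nr1i2, Rxra, Ppara, Alas1, Cyp2e1, Cyp4a10, Cyp4a14, Saa1, Dbp, Dcn, Ptprc and Cela1 were named with values already seen. The promoters, the search patterns and the count of shared 50-base stretches were also chosen after values were seen. One listed gene is not reported here. No genome of the authors' build was used here. Same-numbered libraries of the 2 groups were not paired (correlation of deviations -0.14 to 0.11).

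As alternatives, the pseudocount was set to 0.1 or 0.5, the filter was dropped or raised to 5 TPM, and values were rescaled by median of ratios, by quantiles, or as TPM without mitochondrial-encoded genes. The fit was repeated with array weights, with robust empirical Bayes, without the trend and with a replicate block, and replaced by an exact permutation test over 924 labellings. Further fits left out each library in turn, kept the 8 libraries with Dbp under 10 TPM, or summed near-identical genes. Leaving out controls 4 and 5, leaving out control 5 and treated mouse 3, and log2 Dbp as a covariate were added after seeing the data.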

Additional observations from a re-analysis of the deposited data

Results flagged for a closer look

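In groups of 6, a value that stands far from the other 5 was looked for in 96 groups with Dixon's test at its 95% level, and 17 (17.7%) had one. The 96 did not take in both groups of all 57 genes. Chance flags about 1 in 20 if values are normally distributed. The test used TPM without logs and all 17 flags were high values, so the excess over that rate cannot be interpreted. Control 4 held 8 of them: Cyp2a4 (21.74 TPM, others 0.87 to 1.4), Cyp2b9 (4.43, others 0.08 to 0.74), Cyp2c54 (398.78, others 114 to 209), Cyp2c39 (199.03, others 44.9 to 73.7), Cyp2c68 (85.39, others 48.3 to 57.7), Cyp2c37 (118.02, others 22.4 to 52.7), Cyp2c38 (78.42, others 14.1 to 22.8) and Cyp3a13 (18.62, others 4.70 to 9.53). These genes are close copies in part, so the 8 are not independent.

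Treated mouse 5 stood apart for Cyp2a5 (257.68 TPM, others 98.8 to 136), Cyp2a22 (6.38, others 1.77 to 2.80) and Cyp2s1 (0.18, others 0.02 to 0.06). Control 6 stood apart for Cyp2s1 (1.07 TPM, others 0.03 to 0.40) and for Cyp3a16, at 0.02 TPM with the other controls listed at 0. Cyp2b19 likewise had a single value above 0 in each group, in control 2 (0.03 TPM) and treated mouse 5 (0.05), and is not among the flags. The remaining single values were Cyp2c67 in control 3 (434.61 TPM, others 291 to 330), Cyp2c70 in treated mouse 2 (472.67, others 195 to 235), Cyp2d12 in treated mouse 4 (2.45, others 0.95 to 1.14) and Cyp2j6 in treated mouse 1 (21.33, others 16.7 to 18.2).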

How the results depend on the processing

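Of the 33 tested P450 genes, the 1 called became 0 with no filter, with a filter at 5 TPM (where Cyp2j9 was not tested), by the exact permutation test, with the replicate block, in the 8 low-Dbp libraries, without controls 4 and 5, and without control 5 and treated mouse 3. It became 2, with Cyp3a59 added, with TPM without mitochondrial-encoded genes, robust empirical Bayes or array weights. Leaving out each library gave 0 to 2, with 0 without control 2 and 2 without control 4 or control 6. The adjusted p of Cyp2j9 was 0.00709 to 0.133 over 28 alternatives, 21 of them past 0.05, and 0.0757 with no filter, 0.0849 with the replicate block and 0.133 by permutation, whose p of 0.00216 is the smallest 924 labellings allow. Its change was negative in all 28, but fits that only left out libraries could not turn the sign, since the groups do not overlap. The change was the same -0.77 with no filter, without the trend, with robust empirical Bayes and by permutation. It was also the same with the replicate block and with near-identical genes summed. By permutation 0 of all 9980 tested genes passed. The 9 genes at an unadjusted p under 0.05 became 6 to 9 when each library was left out. They became 5 with the filter at 5 TPM, where Cyp2j9, Cyp2d12, Cyp2b10 and Cyp3a59 were not tested. Of the listed genes, 0 called became 2 with TPM without mitochondrial-encoded genes (Cebpb and Sult1a1) and 2 in the low-Dbp libraries (Nr1d1 and Socs3), and stayed at 0 when each library was left out. Replicate numbers are shared between the groups, but same-numbered libraries deviated together with a correlation above 0.1 for only 1 of 6 numbers, and only number 1 correlated best with its own; over all genes the block left 3 lower and 0 higher.

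Changes near 0 turned sign. Without control 5 and treated mouse 3, Cyp2c67 was at 0.00826, Cyp2c50 at -0.00383, Cyp2c70 at -0.0371, Cyp3a13 at -0.0583 and Cyp2u1 at 0.0205. Without controls 4 and 5, Cyp2c70 was at -0.26, Cyp2c54 at 0.10 and Cyp2g1 at -0.0479. Array weights gave Cyp2c70 -0.28 and Cyp2c54 0.16, TPM without mitochondrial-encoded genes gave Cyp2c70 -0.0721 and Cyp2c23 -0.0871, and the low-Dbp libraries gave Cyp2c70 -0.000736, Cyp2c54 0.0264 and Cyp2d22 0.00403. Cyp2c23 was at -0.0193 with Dbp as a covariate and Cyp2r1 at 0.0221 after quantile normalization. Leaving out each library gave ranges that crossed 0 for Cyp2c23 (-0.0763 to 0.0955), Cyp2c70 (-0.16 to 0.11), Cyp2c54 (-0.15 to 0.21), Cyp2r1 (-0.15 to 0.0221), Cyp2c50 (-0.0101 to 0.21), Cyp2c67 (-0.20 to 0.0396), Cyp2d22 (-0.12 to 0.0402) and Cyp2u1 (-0.24 to 0.0333). The cause was not tested. Depth is unknown from TPM, which limits what can be said of genes near 1 TPM.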
